A study of Mus musculus with 8 samples.

Results

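Arginine can be turned into nitric oxide or into ornithine, and ornithine is the entry to the polyamines. The expression of 10 genes of this pathway was described across all samples of the series: Nos2, Arg1, Arg2, Ass1, Asl, Slc7a1, Slc7a2, Odc1, Srm and Sat1. They were taken by name from tables of 39089 genes, and all 10 had a row. Myc-CaP, a prostate cancer cell line from Myc-transgenic mice, was inoculated under the skin of male FVB mice, aged 6 weeks per the labels. Cells with the genotype Myc-CaP EV, which carried an empty vector, are called WT, and cells with the genotype Myc-CaP Arid1a KO, in which a guide RNA targeted the chromatin remodeller gene Arid1a, are called Arid1a KO, or KO for short. From day 16 the mice received JSH-23, a small molecule that keeps the NF-κB subunit p65 from entering the nucleus, by daily gavage for 2 weeks, or corn oil as vehicle. The 4 groups of 2 samples were thus WT with vehicle, KO with vehicle, WT with JSH-23 and KO with JSH-23, all from FVB hosts of the same sex and age and all described as sorted EpCAM+ CD45- cells. The sources used here do not say whether the knockout line was a single clone, or whether the samples of a group came from separate tumors, so the p-values measure the spread between these samples, which may be technical.

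Nitric oxide synthases make nitric oxide and citrulline from arginine, and arginases split arginine into ornithine and urea. Argininosuccinate synthase (Ass1) and lyase (Asl) rebuild arginine from citrulline, while the carriers Slc7a1 and Slc7a2 take it up from outside the cell. Ornithine decarboxylase (Odc1) makes putrescine, spermidine synthase (Srm) extends it, and spermidine/spermine acetyltransferase (Sat1) marks polyamines for breakdown or export. The inducible synthase Nos2 is a textbook target of NF-κB. Together with Arg1 it is best known from macrophages and myeloid-derived suppressor cells, which deplete arginine around T cells.

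Total counts ranged from 16401581 to 21972231 per sample, and a level of 3 counts, taken as the lowest told from 0, corresponded to between 0.137 and 0.183 CPM, counts scaled to equal library size. Such limits cover counting error only. Arid1a itself stood between 144 and 162 CPM in the 4 WT samples and between 93.8 and 106 CPM in the 4 KO samples, so the groups did not overlap. The counts of 13921 genes that passed a low-count filter were tested with edgeR's quasi-likelihood method in a fit of all 8 samples, and p-values were adjusted over all of them by the Benjamini-Hochberg method. A gene was called at an adjusted p under 0.05, and a stricter rule also asked for a 1.5-fold change. All members except Arg2 passed the filter. The sort was checked against marker genes. Epcam, the gene of the sorting antigen, had between 0 and 4 counts in every sample and Cdh1 between 1 and 19. Epcam RNA thus did not bear out the stated EpCAM+ sort, and the reason was not tested. Krt18 had between 4 and 18 counts, Cldn7 between 0 and 5 and Esrp1 between 0 and 4. Cldn4 had between 111 and 225 counts, and the keratin genes Krt8 and Krt19 between 540 and 2308 and between 207 and 2106. The summed level of the 8 epithelial markers ran from 53.6 CPM in WT tumors with JSH-23 to 228 CPM in KO tumors with vehicle. Most of that sum came from Krt8 and Krt19 in every sample. The 8 lymphoid markers stayed at 3 counts or fewer throughout.

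**Figure D1:**
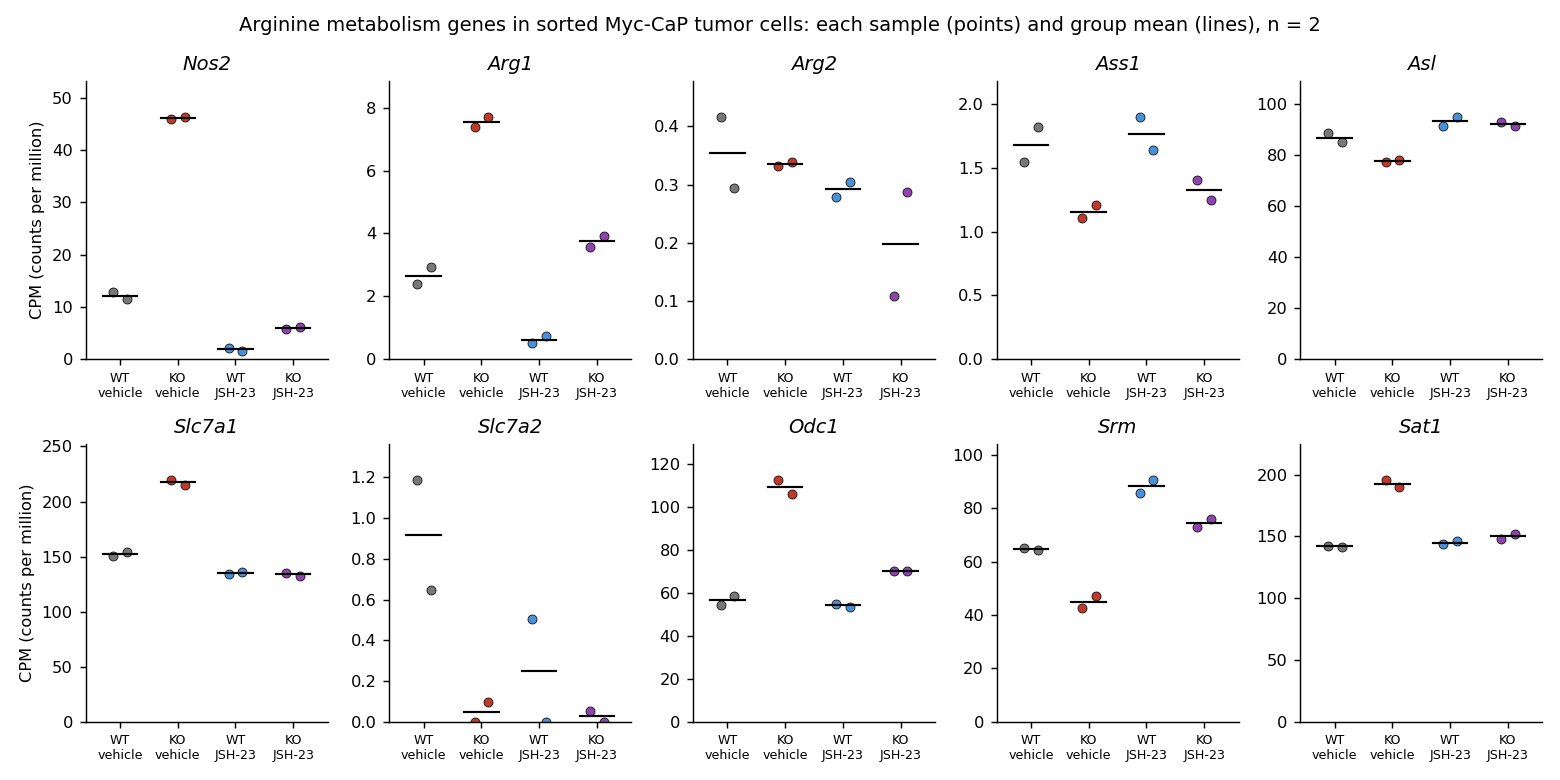
Level of each of the 10 genes in CPM after TMM scaling (vertical axes, from 0, with a scale per gene) in the 4 groups; points are the samples and lines the group means, n = 2. Nos2, Arg1, Slc7a1, Odc1 and Sat1 are highest in KO tumors with vehicle, and Srm is lowest there.

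Nos2 and Arg1, the inducible synthase and the cytosolic arginase, were both higher in KO than in WT tumors and both lower with JSH-23, in either genotype. Nos2 (chromosome 11, 78920787 to 78960226 of mm10, plus strand) had 12.8 and 11.5 CPM in WT and 46.0 and 46.3 CPM in KO tumors with vehicle. With JSH-23 it had 2.12 and 1.58 CPM in WT and 5.73 and 6.04 CPM in KO tumors. No groups overlapped, and the KO samples with JSH-23 lay below the WT samples with vehicle. The difference between genotypes was 3.80-fold with vehicle (log2 fold change 1.93, standard error 0.094, adjusted p = 6.61e-30 from edgeR) and 3.16-fold with JSH-23 (log2 1.66, standard error 0.21, adjusted p = 2.49e-11). JSH-23 lowered Nos2 by 2.97 on the log2 scale in KO tumors (standard error 0.11, adjusted p = 1.66e-38) and by 2.70 in WT tumors (standard error 0.20, adjusted p = 7.64e-23). The difference between these falls was -0.27 on the log2 scale, with a standard error of 0.23, and did not pass the test (adjusted p = 0.393 from edgeR). Over the alternatives it ran from -0.85 to -0.03 and was called in 1 of them, limma on log2(TPM + 1), at -0.85 (adjusted p = 0.00278).

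Arg1 (chromosome 10, 24915207 to 24927470, minus strand) was a gene of low counts, with 40 and 50 in WT and 134 and 159 in KO tumors with vehicle, then 9 and 12 in WT and 66 and 82 in KO tumors with JSH-23. In CPM these were 2.38 and 2.94, then 7.40 and 7.70, then 0.503 and 0.730, then 3.57 and 3.93. Again no groups overlapped, but here the KO samples with JSH-23 stayed above the WT samples with vehicle. Arg1 was 2.84-fold higher in KO tumors with vehicle (log2 1.5, standard error 0.20, adjusted p = 6.23e-10 from edgeR) and 6.09-fold higher with JSH-23 (log2 2.61, standard error 0.35, adjusted p = 1.49e-11). With JSH-23 it fell by 1.01 on the log2 scale in KO tumors (standard error 0.18, adjusted p = 8.63e-07) and by 2.11 in WT tumors (standard error 0.37, adjusted p = 8.44e-08). The fall in KO tumors was thus smaller by 1.10 on the log2 scale (standard error 0.41, adjusted p = 0.0186 from edgeR). This difference was not called by DESeq2 (adjusted p = 0.0835), nor by edgeR without WT with vehicle sample 2 (adjusted p = 0.0891) or without WT with JSH-23 sample 1 (adjusted p = 0.157). Over all alternatives run its adjusted p lay between 0.0149 and 0.868. A long noncoding RNA gene, Gm40616, overlaps Arg1 on the opposite strand, and the counting was stated to use strand.

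The balance between Nos2 and Arg1 shifted with JSH-23 in KO tumors, while the WT groups overlapped. The ratio of Nos2 to Arg1, in TPM, a unit that allows for gene length, was 1.86 and 1.34 in WT and 2.14 and 2.07 in KO tumors with vehicle. It was 1.45 and 0.745 in WT and 0.552 and 0.528 in KO tumors with JSH-23. In KO tumors Nos2 was therefore the more abundant transcript with vehicle and Arg1 the more abundant with JSH-23, in both samples of each group; no test of the ratio itself was run.

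**Figure D2:**
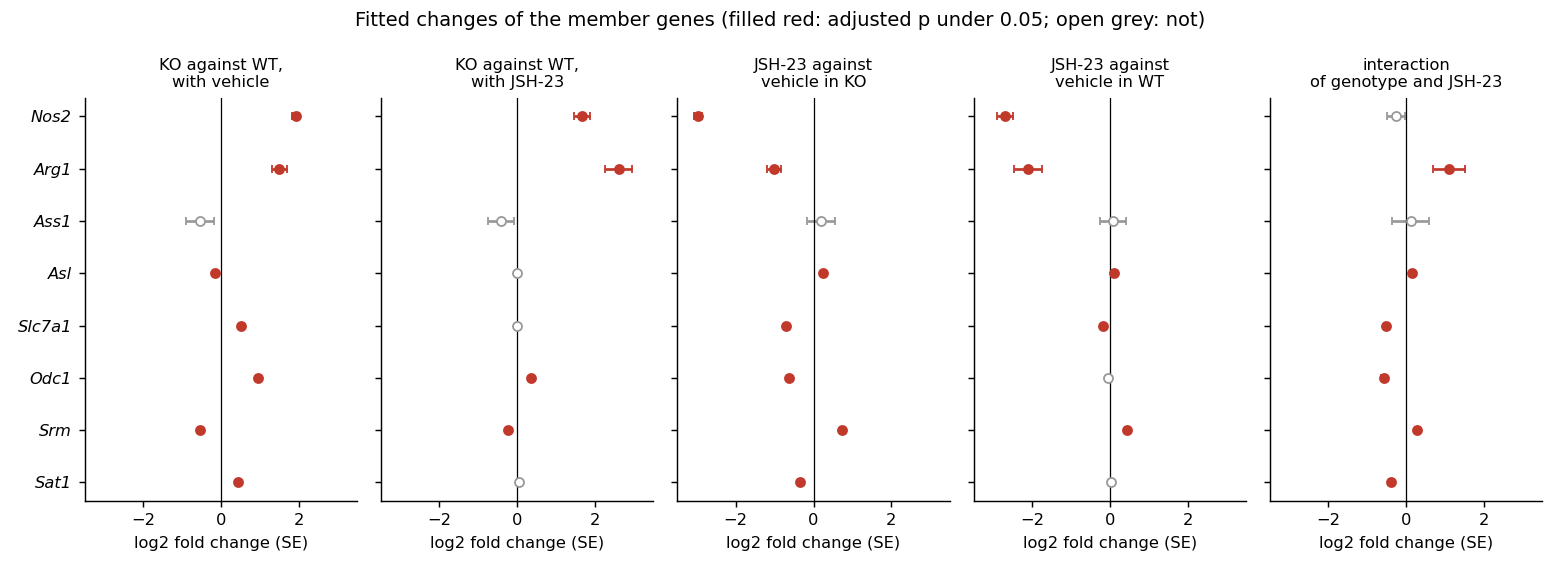
Log2 fold changes (horizontal axes) with standard errors from edgeR's quasi-likelihood fit for 8 members in 5 comparisons; filled red points have an adjusted p under 0.05 and open grey points do not. The bars of Nos2 and Arg1 stay clear of 0 in both genotype and both JSH-23 comparisons, while Slc7a1, Odc1 and Sat1 lie further below 0 with JSH-23 in KO than in WT tumors.

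Both genes are classically expressed by myeloid cells, so the markers of such cells are given beside them. Of 17 leukocyte and myeloid markers, Ly6g had 0 counts in all 8 samples, S100a8 and S100a9 had between 0 and 2, Ptprc, the gene of the CD45 antigen used in the sort, between 0 and 10, and 5 of the 17 never passed 3 counts. Itgam and Adgre1 had 0 counts in both KO samples with vehicle. Summed counts of the macrophage markers Itgam, Adgre1 and Csf1r were 48 and 58 in WT and 2 and 6 in KO tumors with vehicle, and 44 and 2 in WT and 2 and 6 in KO tumors with JSH-23. The summed level of the 17 markers was between 32.2 and 35.7 CPM in the 4 vehicle samples and between 17.2 and 27.3 CPM in the 4 JSH-23 samples. Within that list Cd68, a lysosomal protein gene abundant in macrophages, was highest in KO tumors with vehicle, with 110 and 127 counts in WT and 301 and 378 in KO tumors with vehicle, then 98 and 81, then 165 and 153. Lyz2, the macrophage lysozyme gene, was not, with 164 and 165 counts in WT and 54 and 71 in KO tumors with vehicle, then 190 and 85, then 68 and 48. Cd14, also of that list, had 181 and 193 counts in WT and 204 and 259 in KO tumors with vehicle, then 119 and 105, then 112 and 135. In sorted bulk cells a change in the share of a cell type and a change in RNA per cell cannot be told apart. The part of these markers' cells in Nos2 and Arg1 was not tested.

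**Figure D3:**
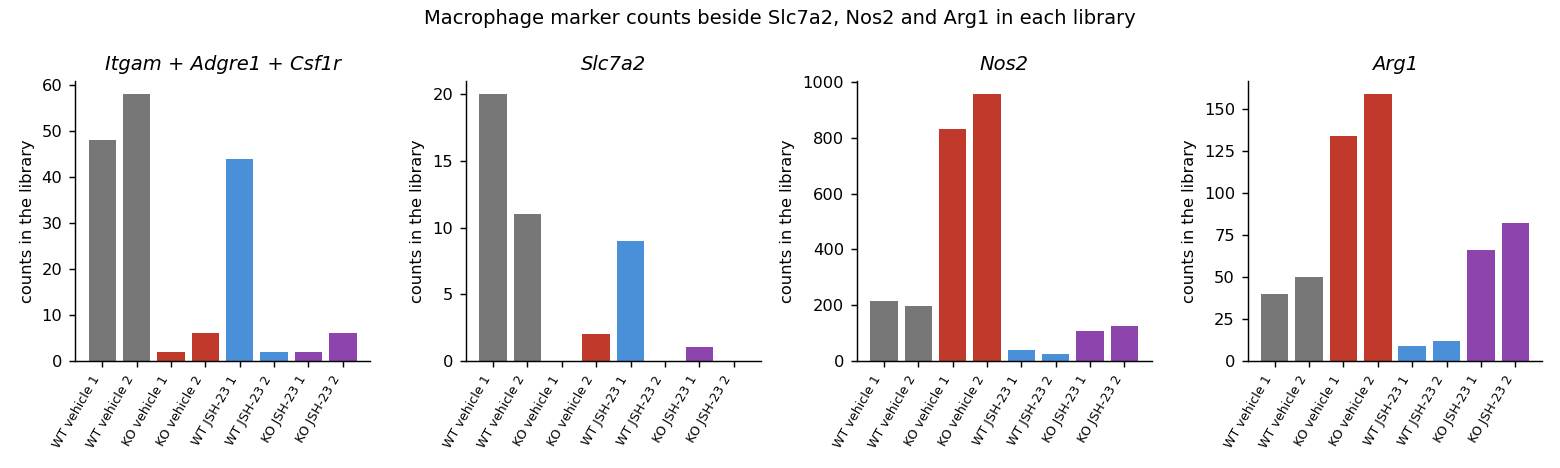
Counts in each of the 8 libraries (vertical axes, from 0) for 3 macrophage markers summed (Itgam, Adgre1 and Csf1r) and for Slc7a2, Nos2 and Arg1; colors mark the groups. The marker sum is 48 and 58 in WT with vehicle and 44 in WT with JSH-23 sample 1 but at most 6 in the other samples. Slc7a2 is also highest in those 3 libraries, while Nos2 and Arg1 are highest in KO tumors with vehicle. Markers not drawn differ: Lyz2 is also highest in those 3 libraries, and Cd68 is highest in KO tumors with vehicle.

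Slc7a1, Odc1 and Sat1 formed a group with a shared pattern of smaller size: higher in KO tumors with vehicle, and lowered by JSH-23 in KO tumors. RefSeq promoter sequences were matched for 4 members, and all 4 are shown, those of these 3 genes because the genes moved together in tumors given an inhibitor of NF-κB, and that of Ass1, which edgeR called in no comparison, for contrast. They are the bases just before the annotated gene on GRCm38.p6, written 5′ to 3′ on the gene's strand, with matches to a spaced NF-κB pattern (GGG, then 5 bases of any kind, then CC) the AP-1 pattern TGANTCA and the E-box CACGTG in capitals, searched on both strands:
Slc7a1 (chr5:148399905-148400154, minus strand): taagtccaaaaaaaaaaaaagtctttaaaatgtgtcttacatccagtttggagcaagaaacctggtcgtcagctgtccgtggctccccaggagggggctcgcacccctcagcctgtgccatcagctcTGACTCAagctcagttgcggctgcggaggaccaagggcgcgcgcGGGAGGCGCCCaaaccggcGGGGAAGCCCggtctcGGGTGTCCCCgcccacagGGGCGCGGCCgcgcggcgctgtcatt
Odc1 (chr12:17544623-17544807, plus strand): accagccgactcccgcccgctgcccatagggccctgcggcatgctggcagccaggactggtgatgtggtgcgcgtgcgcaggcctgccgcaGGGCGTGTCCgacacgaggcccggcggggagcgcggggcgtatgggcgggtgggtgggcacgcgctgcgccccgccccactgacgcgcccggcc
Sat1 (chrX:155216450-155216699, minus strand): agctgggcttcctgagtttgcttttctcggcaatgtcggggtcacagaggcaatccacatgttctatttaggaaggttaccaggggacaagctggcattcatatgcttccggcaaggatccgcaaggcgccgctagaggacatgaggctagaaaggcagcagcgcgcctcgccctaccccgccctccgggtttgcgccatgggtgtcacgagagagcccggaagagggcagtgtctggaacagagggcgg
Ass1 (chr2:31470020-31470269, plus strand): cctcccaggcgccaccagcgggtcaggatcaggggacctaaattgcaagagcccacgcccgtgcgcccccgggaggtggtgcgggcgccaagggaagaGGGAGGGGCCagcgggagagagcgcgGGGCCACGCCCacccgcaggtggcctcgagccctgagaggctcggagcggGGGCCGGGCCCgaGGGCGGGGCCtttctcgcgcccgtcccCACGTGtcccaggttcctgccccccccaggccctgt

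The Slc7a1 window held 5 matches to the NF-κB pattern, of which 2 overlapped, and 1 match to the AP-1 pattern. The Odc1 window, of 185 bases, held 1 match to the NF-κB pattern and none to the AP-1 pattern, and the Sat1 window held neither. Most matches to the NF-κB pattern, 6, were in the window of Ass1, where 2 pairs of them overlapped. That window also held 1 E-box. The NF-κB pattern is loose: 45.8% of 32851 mouse promoter windows of 250 bases held it, and 34.2% when only the first 185 bases were searched. The AP-1 pattern was in 6.75% of windows of 250 bases and the E-box in 6.02%. The amino acid response element (TGATGNAA), which 3.45% of windows held, was in none of the 4. A match is a run of letters and not evidence of binding.

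Slc7a1, the cationic amino acid carrier CAT-1, had 151 and 154 CPM in WT and 220 and 215 CPM in KO tumors with vehicle. With JSH-23 it had 135 and 136 CPM in WT and 135 and 133 CPM in KO tumors, where the genotypes overlapped. It was 1.43-fold higher in KO tumors with vehicle (log2 0.51, standard error 0.031, adjusted p = 5.89e-24 from edgeR). With JSH-23 the difference was -0.02 on the log2 scale, with a standard error of 0.033 (adjusted p = 0.734), but it was -0.09 without scaling beyond library size and -0.20 on log2(TPM + 1) by limma, both called (adjusted p = 0.0149 and 0.00139). The medians of all genes under those settings were -0.09 and -0.16, so most of these values was shared by all genes. JSH-23 lowered Slc7a1 by 0.70 on the log2 scale in KO tumors (adjusted p = 7.49e-32 from edgeR) and by 0.17 in WT tumors (adjusted p = 1.06e-05). The difference of -0.53 between these changes passed the test (standard error 0.045, adjusted p = 3.69e-16 from edgeR).

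Odc1, whose product is the rate-limiting enzyme of polyamine synthesis, had 54.4 and 58.5 CPM in WT and 112 and 106 CPM in KO tumors with vehicle. In WT tumors with JSH-23 it stood at 54.9 and 53.6 CPM, overlapping the vehicle samples, and in KO tumors with JSH-23 at 69.9 and 70.0 CPM, between the vehicle groups. The rise in KO tumors was 1.93-fold with vehicle (log2 0.95, standard error 0.048, adjusted p = 3.34e-28 from edgeR) and 1.29-fold with JSH-23 (log2 0.37, standard error 0.051, adjusted p = 4.11e-09). JSH-23 lowered Odc1 by 0.64 on the log2 scale in KO tumors (standard error 0.044, adjusted p = 2.47e-21), whereas the change in WT tumors was -0.06 (standard error 0.054, adjusted p = 0.365). The difference between these changes was -0.58 (standard error 0.069, adjusted p = 1.15e-10 from edgeR). A small nucleolar RNA gene, Gm22748, lies within Odc1 on the same strand.

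Sat1 had 142 and 141 CPM in WT and 196 and 190 CPM in KO tumors with vehicle, and with JSH-23 it had 144 and 146 CPM in WT and 148 and 152 CPM in KO tumors. It was 1.36-fold higher in KO tumors with vehicle (log2 0.44, standard error 0.032, adjusted p = 5.86e-20 from edgeR). JSH-23 lowered it by 0.36 on the log2 scale in KO tumors (adjusted p = 4.97e-17 from edgeR), and its change in WT tumors was 0.03 (adjusted p = 0.452). The difference between these was -0.39 (standard error 0.045, adjusted p = 4.33e-11 from edgeR). With JSH-23 the genotypes differed by 0.05 on the log2 scale after TMM scaling (adjusted p = 0.207) and by -0.14 on log2(TPM + 1) by limma (adjusted p = 0.00172), so this sign depends on the scaling. The median of all genes was -0.16 on log2(TPM + 1) in that comparison.

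Srm, which makes spermidine, moved the other way. It had 65.0 and 64.5 CPM in WT and 42.7 and 47.0 CPM in KO tumors with vehicle, and 85.8 and 90.6 CPM in WT and 73.1 and 76.2 CPM in KO tumors with JSH-23. No groups overlapped. Srm was lower in KO tumors by 0.53 on the log2 scale with vehicle (log2 fold change -0.53, standard error 0.054, adjusted p = 2.58e-13 from edgeR) and by 0.24 with JSH-23 (log2 fold change -0.24, adjusted p = 1.27e-05). JSH-23 raised it 1.66-fold in KO tumors (log2 0.73, standard error 0.052, adjusted p = 7.97e-21 from edgeR) and 1.36-fold in WT tumors (log2 0.44, standard error 0.049, adjusted p = 2.82e-12). The rise in KO tumors was larger by 0.29 (standard error 0.071, adjusted p = 0.000717 from edgeR), but on log2(TPM + 1) by limma the difference was 0.09 and was not called (adjusted p = 0.314).

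The enzymes that rebuild arginine from citrulline differed little between groups in edgeR. Asl had between 77.1 and 94.7 CPM in all samples, with 88.4 and 84.9 in WT and 77.1 and 77.8 in KO tumors with vehicle. It was lower in KO tumors with vehicle (log2 -0.16, standard error 0.043, adjusted p = 0.00114 from edgeR) and higher with JSH-23 in KO tumors (log2 0.25, standard error 0.042, adjusted p = 3.50e-07). On log2(TPM + 1) by limma the rise in KO tumors was 0.01 and was not called (adjusted p = 0.773), and Asl was called lower in KO than in WT tumors with JSH-23 (log2 -0.21, adjusted p = 0.00106). The medians of all genes by that method were -0.20 and -0.16 in these comparisons. With the biological coefficient of variation, the spread between samples beyond counting error, set to 0.1, edgeR called neither the vehicle difference (adjusted p = 0.498) nor the rise in KO tumors (adjusted p = 0.166). The rise of Asl in WT tumors (log2 0.10, adjusted p = 0.0361 from edgeR) and the difference between the rises (log2 0.15, adjusted p = 0.0466) were each lost with DESeq2 (adjusted p = 0.157 and 0.187). Ass1, the step that usually limits arginine synthesis, was near the lower end of what was measured, with between 20 and 34 counts per sample. It had 1.54 and 1.82 CPM in WT and 1.10 and 1.21 CPM in KO tumors with vehicle, and 1.90 and 1.64 CPM in WT and 1.41 and 1.25 CPM in KO tumors with JSH-23. Every WT sample lay above every KO sample, yet edgeR called no comparison of Ass1 (adjusted p = 0.199 with vehicle and 0.315 with JSH-23 between genotypes), while limma on log2(TPM + 1) called it lower in KO tumors with vehicle (log2 -0.36, adjusted p = 0.0267) and with JSH-23 (log2 -0.41, adjusted p = 0.0141), so the call depends on the method. The medians of all genes by limma were 0.0084 with vehicle and -0.16 with JSH-23.

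Slc7a2, a carrier that supplies arginine to macrophages, and Arg2, the mitochondrial arginase, were hardly detected. Slc7a2 had 20 and 11 counts in WT and 0 and 2 in KO tumors with vehicle, then 9 and 0 in WT and 1 and 0 in KO tumors with JSH-23. The WT to KO ratio per total count was 17.7 with vehicle (exact 95% interval 4.52 to 153, counting error only), from 31 against 2 counts. With JSH-23 it was 10.3 (1.43 to 452), from 9 against 1 counts, all 9 of them from WT with JSH-23 sample 1. The vehicle difference was called by edgeR (adjusted p = 0.000134) and not by DESeq2 (adjusted p = 0.136). The fall with JSH-23 in WT tumors was called by edgeR (log2 -1.79, standard error 0.73, adjusted p = 0.0198), but not by DESeq2 (adjusted p = 0.499) or by limma on log2(TPM + 1) (adjusted p = 0.0979). It was lost without WT with vehicle sample 1 (adjusted p = 0.239 from edgeR) and without WT with JSH-23 sample 2 (adjusted p = 0.292), and leaving out a sample in turn moved it from -7.08 to -0.86. The 3 libraries with most Slc7a2 were the 3 with most Itgam, Adgre1 and Csf1r, given above. They also had most Lyz2, whereas Cd68 and Cd14 had most counts in KO tumors with vehicle. The part of cells with these markers in the Slc7a2 counts was not tested. Arg2 had between 2 and 7 counts in every sample and failed the filter. The opposite strand of Arg2 carries Gm40462 and Vti1b.

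**Figure D4:**
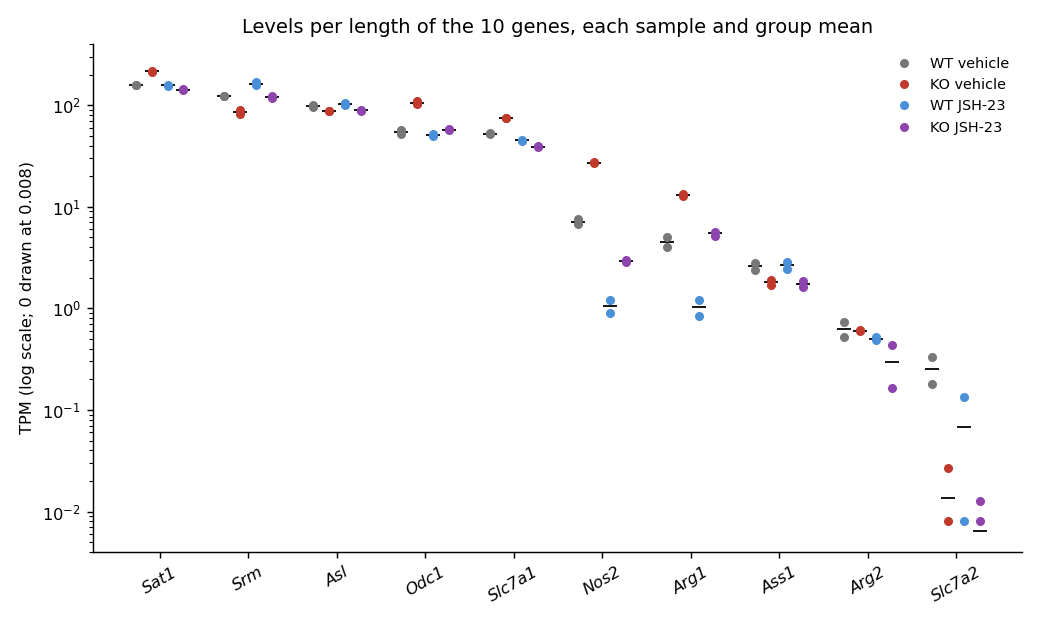
Level per length of the 10 genes in TPM (vertical axis, log scale, 0 drawn at 0.008) in each sample (points) and as group means (dashes), n = 2. Sat1, Srm, Asl, Odc1 and Slc7a1 lie above 30 TPM in every sample, and the other 5 genes lie below that.

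Compared per length, the 10 genes fell into a tier of abundant and a tier of scarce transcripts. In WT tumors with vehicle the mean TPM was 158 for Sat1, 123 for Srm, 98.1 for Asl, 54.6 for Odc1 and 52.1 for Slc7a1. Then came Nos2 with 7.13, Arg1 with 4.54, Ass1 with 2.60, Arg2 with 0.632 and Slc7a2 with 0.254. Of these neighbours only Odc1 and Slc7a1 overlapped between samples. In KO tumors with vehicle Odc1 stood second with 106 TPM, above Asl with 88.0 and Srm with 85.6, which overlapped each other, and Nos2 reached 27.2 and Arg1 13.0 TPM. In WT tumors with JSH-23 Srm came first with 163 TPM, and Ass1 with 2.66 TPM stood above Nos2 with 1.06 and Arg1 with 1.02, which overlapped. In KO tumors with JSH-23 Arg1 with 5.45 TPM stood above Nos2 with 2.94.

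Of the 10 members, 5 were called higher and 3 lower in KO tumors with vehicle, against a background of 25% of all tested genes called higher and 25.5% lower. The stricter rule called 3 higher (Nos2, Arg1 and Odc1) and 1 lower (Slc7a2), against 7.48% and 5.16% of all genes. With JSH-23, 3 were higher and 1 lower between genotypes, against 23.2% and 23.8%, and under the stricter rule Nos2 and Arg1 were higher, against 3.74%, and 0 were lower, against 4.97% (1 by unadjusted p in edgeR, Slc7a2, and 0 by DESeq2). On log2(TPM + 1) by limma 5 members were lower there, where 50.6% of all genes were called in either direction and the median of all genes was -0.16. JSH-23 in KO tumors raised 2 and lowered 5 members, against 33.4% and 34.4% of all genes, and under the stricter rule 1 (Srm) and 4 (Nos2, Arg1, Slc7a1 and Odc1), against 9.1% and 16.9%. In WT tumors it raised 2 and lowered 4, against 28.6% and 27.2%, and under the stricter rule it lowered 3 (Nos2, Arg1 and, lost under alternatives given above, Slc7a2), against 10.2%, and raised 0, against 5.55% (also 0 by unadjusted p in edgeR and by DESeq2). The JSH-23 effect differed between genotypes for 6 members, 3 in each direction, against 20.5% of genes with a more positive and 17.9% with a more negative effect in KO tumors. Under the stricter rule Arg1 was the only member that differed in edgeR, by adjusted or unadjusted p, against 3.3% of genes above and 5.76% below 0. DESeq2 called 0 members by that rule, against 6.34% of all genes in either direction. The median log2 fold change of the 9 tested members was 0.44 between genotypes with vehicle, beside 0.0032 over all genes. Between genotypes with JSH-23 it was -0.016, beside -0.011. JSH-23 gave a member median of -0.64 in KO tumors, beside -0.02, and of -0.058 in WT tumors, beside -0.0061. The interaction had a member median of 0.11, beside -0.0041. Members were picked knowing earlier results of these data, so their medians are not those of an unselected set. The shares of called genes rest on a small spread between samples: the biological coefficient of variation common to all genes was 1.61%. With that coefficient set to 0.2, Nos2 and Arg1 kept their calls in both genotype and both JSH-23 comparisons, and so did Odc1 between genotypes with vehicle (adjusted p = 0.0330).

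Beyond the members, 62 other genes of the pathway were looked up, and 49 of them passed the filter. In KO tumors with vehicle 8 were called higher and 14 lower, and with JSH-23 15 were higher and 14 lower. JSH-23 raised 22 and lowered 14 in KO tumors and raised 17 and lowered 12 in WT tumors, and its effect was more positive in KO tumors for 14 and more negative for 8. Shares of all genes are those given above.

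**Figure D5:**
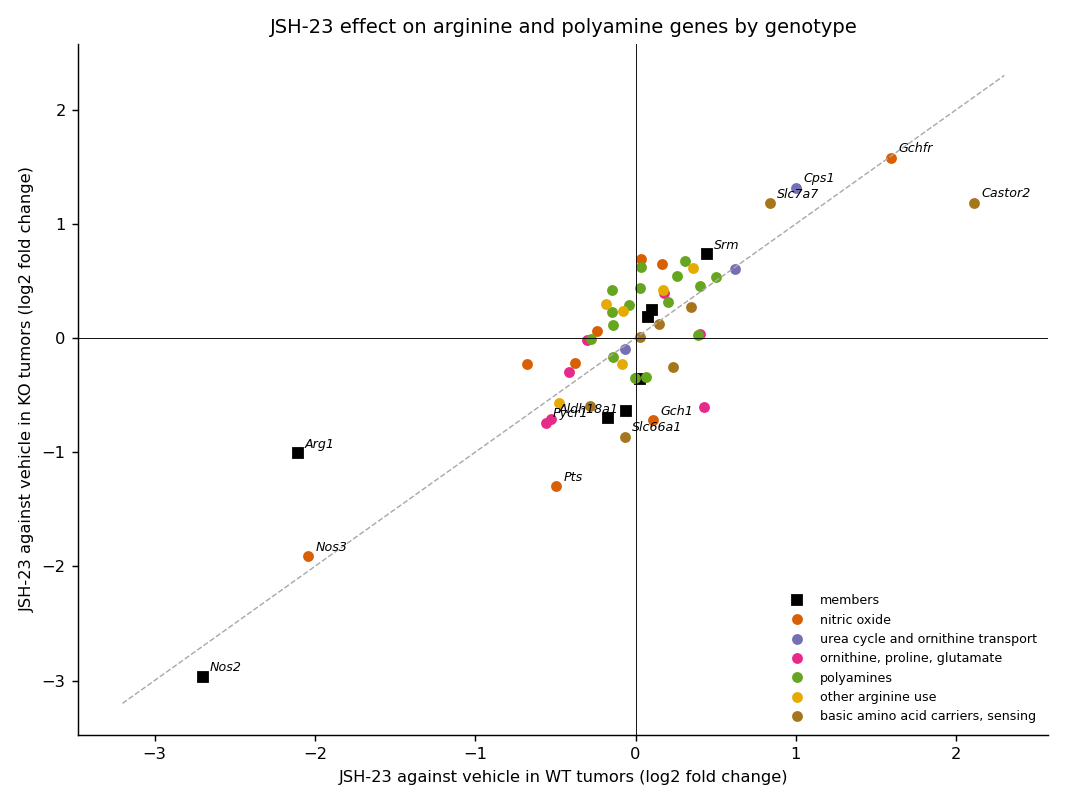
Log2 fold change with JSH-23 against vehicle in WT (horizontal axis) and KO tumors (vertical axis) for 8 members (black squares; Slc7a2 is left out for its low counts) and 49 other arginine and polyamine genes (circles, by list); the dashed line marks equal changes. Nos2, Nos3 and Gchfr lie near the line, Arg1 and Pts away from it, and Castor2 rises more in WT tumors.

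Genes around nitric oxide synthesis moved in both directions. Of 13 listed, 9 were tested, of which 2 were higher and 3 lower in KO tumors with vehicle, against 25% and 25.5% of all genes. The higher genes, Gch1 and Pts, make tetrahydrobiopterin, the cofactor that nitric oxide synthases need. Spr and Qdpr, listed for the same cofactor, were lower there. Their log2 fold changes were -0.14 (adjusted p = 0.0394 from edgeR) and -0.41 (adjusted p = 4.16e-08), so genes of this cofactor moved both ways. Gch1, the first and limiting enzyme, had 26.7 and 31.0 CPM in WT and 47.2 and 42.2 CPM in KO tumors with vehicle (log2 0.63, standard error 0.073, adjusted p = 1.61e-11 from edgeR). It fell by 0.72 on the log2 scale with JSH-23 in KO tumors (adjusted p = 2.67e-14), its change in WT tumors was 0.11 (adjusted p = 0.244), and the difference was -0.83 (adjusted p = 9.18e-10 from edgeR). Pts rose with a log2 fold change of 0.72 in KO tumors with vehicle and fell by 1.30 with JSH-23 in them. Gchfr, whose product restrains Gch1, showed the opposite: it had 5.36 and 5.67 CPM in KO tumors with vehicle and 16.5 in both KO samples with JSH-23 (log2 1.58, adjusted p = 1.74e-18 from edgeR), and its rise in WT tumors was 1.59. Nos3, the endothelial synthase gene, fell by 1.91 in KO and by 2.04 in WT tumors with JSH-23, from levels between 2.61 and 3.98 CPM. Its difference between genotypes with vehicle was 0.39 and was not called (adjusted p = 0.199 from edgeR). Endothelial markers, 5 in all, summed to between 0.533 and 1.73 CPM.

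Of the polyamine genes beyond the members, 18 were listed and 16 tested. In KO tumors with JSH-23 against vehicle, 8 were higher and 3 lower, against 33.4% and 34.4% of all genes. Oaz1, the antizyme that sends ornithine decarboxylase to degradation, had between 189 and 197 CPM in the 4 vehicle samples, 231 and 244 CPM in WT and 305 and 311 CPM in KO tumors with JSH-23. It thus rose with JSH-23 where Odc1 fell, by a log2 fold change of 0.68 in KO tumors (standard error 0.027, adjusted p = 6.88e-34 from edgeR) against 0.31 in WT tumors, and the difference of 0.37 passed the test (adjusted p = 4.28e-12). Azin1, the inhibitor of antizyme, was higher in KO tumors with vehicle (log2 0.41) and with JSH-23 in WT tumors (log2 0.39). Sms, which makes spermine, and Paox, a polyamine oxidase, rose with JSH-23 in KO tumors by log2 fold changes of 0.44 and 0.62. In WT tumors their values were 0.03 and 0.03, neither called, and the differences between genotypes of 0.40 and 0.59 passed the test (adjusted p = 3.42e-09 and 0.000106 from edgeR). In TPM the rises in KO tumors were smaller. Mean TPM there went from 61.0 to 70.0 for Sms, 15.6 to 20.3 for Paox and 454 to 616 for Oaz1. Amd1, which supplies the aminopropyl donor, was lower with JSH-23 in WT tumors (log2 -0.28), but it has a near-identical copy, Amd2, and reads of such copies can be split between them. Smox, spermine oxidase, was lower in KO tumors with both treatments (log2 -2.20 and -2.17) at levels of at most 1.12 CPM.

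Among the genes that lead from ornithine to proline and glutamate, 7 of 8 were tested. Aldh18a1, which makes the precursor of proline and ornithine from glutamate, had 123 and 119 CPM in WT and 187 and 187 CPM in KO tumors with vehicle (log2 0.63, standard error 0.035, adjusted p = 1.86e-25 from edgeR). With JSH-23 it fell by 0.71 in KO and by 0.53 in WT tumors. Pycr1, the last enzyme of proline synthesis, fell by 0.74 and 0.56 in the same comparisons. Of the urea cycle list 3 of 6 genes were tested. Slc25a29, a mitochondrial carrier of basic amino acids, and Cps1, which makes carbamoyl phosphate, rose with JSH-23 in both genotypes, by log2 fold changes of 0.60 and 1.32 in KO and 0.62 and 1.00 in WT tumors. Otc, whose product takes the next step of the cycle, had 0 counts in all 8 samples.

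Other basic amino acid carriers and arginine sensors, 8 of 10 tested, had 4 genes higher and 2 lower with JSH-23 in KO tumors. In WT tumors 5 were higher and 0 lower. The shares of all genes were 33.4% and 34.4% in KO tumors and 28.6% and 27.2% in WT tumors. Castor2, a relative of the cytosolic arginine sensor, rose from 4.69 and 5.65 CPM to 21.8 and 22.9 CPM in WT tumors (log2 2.11, standard error 0.13, adjusted p = 3.83e-24 from edgeR) and from 4.14 and 4.36 CPM to 9.19 and 10.2 CPM in KO tumors (log2 1.19, adjusted p = 2.85e-11). The smaller rise in KO tumors passed the test (difference -0.92, adjusted p = 0.000104 from edgeR). Slc7a7, a light chain that exports basic amino acids, rose with JSH-23 by log2 fold changes of 1.18 and 0.84 in KO and WT tumors. Its partner Slc3a2 was higher in KO tumors with vehicle (log2 0.41) and with JSH-23 (log2 0.39). Slc66a1, a lysosomal exporter of basic amino acids, fell by 0.86 with JSH-23 in KO tumors, and Slc7a6, another light chain, had between 39.6 and 46.1 CPM throughout. In the list of other arginine uses, 6 of 7 tested, Gamt, which makes creatine, was lower in KO tumors with vehicle (log2 -0.61) and rose with JSH-23 in them (log2 0.61).

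The genes whose pattern over the 8 samples was most like that of a member were found by the root mean square difference of mean-centred log2 CPM among 12242 genes. For Nos2 these were Cxcl2, a chemokine of neutrophils, at 0.37, the transcription factor gene Fos at 0.39 and the keratin gene Krt31 at 0.42. Cxcl2 had 13.4 and 11.7 CPM in WT and 61.1 and 62.9 CPM in KO tumors with vehicle, then 2.90 and 3.89, then 9.08 and 9.55. For Arg1 they were AU021092 at 0.28, the lactate carrier gene Slc16a3 at 0.30 and the chemokine gene Ppbp at 0.31. For Odc1 they were Psph, of serine synthesis, at 0.05, Tbc1d31 at 0.06 and Cntd1 at 0.06. The distances were not scaled to a gene's range or counting error, so they cannot be compared between Nos2, Arg1 and Odc1. These distances are descriptions over samples that share libraries and depth.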

How the data were processed

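RNA-seq of 8 samples, in 4 groups of 2, was used; groups were taken from the sample labels. The authors aligned reads to the mouse genome (GRCm38/mm10) and counted them per gene by strand with HTSeq; the paper names TopHat2 as aligner and the labels name HISAT2, so which was used for these files is unclear. Whole-number counts were deposited, with no normalization applied. The deposited TPM values are those counts divided by gene length and scaled to a fixed sum per sample, and keep no depth. Counting only the best match of a read can split reads between near-identical genes.

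Counts were filtered with filterByExpr, scaled with TMM and fitted with a mean per group over all 8 samples by the quasi-likelihood test of edgeR 4.0.16 (R 4.3.3), with Benjamini-Hochberg adjustment over 13921 genes. CPM values use the TMM-scaled totals. A total of 5 comparisons were tested: genotype with vehicle and with JSH-23, JSH-23 in each genotype, and the interaction. In counts simulated for Arid1a KO against WT with vehicle, 182 of 200 changed genes were recovered with 5 false calls among 13683 genes tested. The simulation took its spread from the same edgeR fit and planted only changes larger than 1.5-fold. It therefore does not test whether that spread is biological, or how smaller changes are recovered.

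The members and gene lists were chosen with earlier results of these data known. Named beyond the members are genes of the lists called with at least a 1.5-fold change in any comparison and a mean of at least 1 CPM (at most 4 per list, by size of change), Oaz1, Azin1, Amd1, Sms, Smox, Gch1, Slc3a2 and Slc7a6, and the 3 genes nearest to Nos2, Arg1 and Odc1 in pattern; marker genes come from fixed lists of cell types. Alternatives were DESeq2 1.42.0, limma 3.58.1 on TPM with pseudocounts of 1 and 0.1, no scaling, a block for the replicate number, no filter or a minimum of 10 counts throughout, only the compared groups, biological coefficients of variation of 0.1 and 0.2, CPM per kilobase for the order of levels, and leaving out each sample. Replicates differed by more than sampling noise (chi-square per degree of freedom 1.46 to 1.57), and each was kept. The fibroblast markers, 7 in all, summed to between 42.0 and 66.2 CPM. Most of this was Pdgfra, with between 38.0 and 61.3 CPM, and no other fibroblast marker passed 3.59 CPM in any sample.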

Additional observations from a re-analysis of the deposited data

Results flagged for a closer look

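The JSH-23 effect differed between genotypes by the interaction test of edgeR for 6 of the 9 members tested. For Odc1 the effect in Arid1a KO minus that in WT tumors was -0.58 on the log2 scale (adjusted p = 1.15e-10 from edgeR), for Slc7a1 it was -0.53 (adjusted p = 3.69e-16) and for Sat1 it was -0.39 (adjusted p = 4.33e-11). In each of these genes both KO samples with vehicle stood above the other 6 samples. For Srm it was 0.29 (adjusted p = 0.000717 from edgeR), for Arg1 it was 1.10 (adjusted p = 0.0186) and for Asl it was 0.15 (adjusted p = 0.0466). The Arg1 and Asl differences were lost under several alternatives, and that of Srm on TPM. When the biological coefficient of variation was set to 0.1 (1.61% was estimated), none of the 6 passed the test, and Odc1 came nearest (adjusted p = 0.0847). Across all genes, 20.5% had a called difference above 0 and 17.9% a called difference below 0. Over all genes tested, the median interaction was -0.0041 after TMM, -0.11 without scaling and -0.17 on log2(TPM + 1).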

How the results depend on the processing

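Nos2 and Arg1 kept their calls and directions in both genotype and both JSH-23 comparisons under all alternatives that tested them. Counts of members are given as higher or lower. Shares of all genes called, in either direction, come first. With a biological coefficient of variation of 0.1 it was 5.37% in the interaction, 13.6% between genotypes with JSH-23 and 20.6% with vehicle. For JSH-23 it was 43.2% in KO and 26.1% in WT tumors. At 0.2 these shares were 0.338%, 1.85%, 4.41%, 15.4% and 5.81%, in that order. With a biological coefficient of variation of 0.1, the interaction had 0 higher and 0 lower (0 higher at 1.5-fold), JSH-23 raised 1 member in KO and 1 in WT tumors, and 1 was lower at 1.5-fold between genotypes with JSH-23; of the 49 other pathway genes tested (the wider list), 7 were higher and 5 lower with JSH-23 in WT tumors, 8 lower in KO tumors, 3 higher and 6 lower between genotypes with JSH-23, 6 lower with vehicle, and 1 higher and 2 lower in the interaction. At 0.2 the interaction had 0 and 0 members (0 at 1.5-fold), JSH-23 raised 0 (0 at 1.5-fold) and lowered 2 (2 at 1.5-fold) in KO and raised 0 in WT tumors, 3 were higher and 1 lower between genotypes with vehicle, and 0 were lower with JSH-23; of the wider list 4 and 2 moved in KO and 2 and 1 in WT tumors, 0 and 1 between genotypes with vehicle, 0 and 2 with JSH-23, and 0 and 0 in the interaction.

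DESeq2 gave 1 member higher in the interaction (0 at 1.5-fold), 1 raised in WT tumors, 0 lower at 1.5-fold with vehicle and 7 wider list genes lower between genotypes with JSH-23. Of all genes, in either direction, it called 43% for JSH-23 in WT tumors and 33.9% between genotypes with JSH-23. At 1.5-fold it called 9.7% between genotypes with vehicle and 6.34% in the interaction. With a minimum of 10 counts throughout, which removes Arg1 and Slc7a2, 1 was higher in the interaction (0 higher and 1 lower at 1.5-fold), 1 raised and 2 lowered in WT tumors (1 lowered at 1.5-fold), and 1 higher with JSH-23 and 0 lower with vehicle at 1.5-fold between genotypes. Of all genes this called 61% for JSH-23 in WT tumors (14.1% at 1.5-fold). At 1.5-fold the shares were 9.57% in the interaction, and 7.89% with JSH-23 and 11.1% with vehicle between genotypes. Without a filter 1 was raised in WT tumors, where 30.6% of all genes were called in either direction. Without scaling 1 was raised in WT tumors, 3 were lower between genotypes with JSH-23 (1 at 1.5-fold), 2 lower at 1.5-fold in the interaction, and 9 wider list genes were higher and 13 lower in it. Of all genes that setting called 55.9% for JSH-23 in WT tumors. It called 49.2% between genotypes with JSH-23 (9.63% at 1.5-fold) and 10.3% at 1.5-fold in the interaction. On log2(TPM + 1) with limma 1 was raised in each genotype by JSH-23 (0 at 1.5-fold in KO tumors), 5 were lower between genotypes with JSH-23 and 0 lower at 1.5-fold with vehicle, the interaction had 0 higher (0 at 1.5-fold) and 4 lower at 1.5-fold, and the wider list had 6 higher and 25 lower with JSH-23 and 6 and 16 in the interaction. With a pseudocount of 0.1 the values were 1 and 1 (0), 5, 1 higher and 3 lower at 1.5-fold, 6 and 25, and 6 and 15. Of all genes, limma on log2(TPM + 1) called 66.1% for JSH-23 in KO tumors (22.8% at 1.5-fold) and 52% in WT tumors. It called 50.6% between genotypes with JSH-23, and at 1.5-fold 9.17% with vehicle and 10.7% in the interaction. With a pseudocount of 0.1 these shares were 66% (29.2%), 51.4%, 51.2%, 11.9% and 12.3%, in that order. The share of higher genes among 1.5-fold calls for JSH-23 in KO tumors was 35.0% after TMM, 22.5% without scaling and 12.8% on log2(TPM + 1), where the median of all genes was -0.20 in place of -0.02. For the genotypes with JSH-23 these shares were 42.9%, 29.6% and 15.9%, and for the interaction 36.5%, 18.8% and 10.6%. Of all genes, the interaction called 25.5% with DESeq2, 44.8% with the minimum of 10 counts, 40.3% without scaling and 40.1% on log2(TPM + 1). The order of levels was the same for all 10 members in CPM per kilobase.

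The replicate number as a block gave 2 members lower between genotypes with JSH-23 (1 at 1.5-fold), the added call being Slc7a2, and changed no other call of a member or named gene. With the block 47.1% of all genes were called between genotypes with JSH-23, and 8.62% at 1.5-fold. Deviations of same-numbered samples correlated between -0.007 and 0.026, so the numbers do not pair the samples.

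Signs that turned mostly belonged to values near 0 or to few counts. Sat1 between genotypes with JSH-23, and Slc3a2 with JSH-23 in KO tumors (0.12 in edgeR), were called with the turned sign on TPM. The medians of all genes in these comparisons were -0.16 and -0.20 on log2(TPM + 1). On log2(TPM + 1) and log2(TPM + 0.1), in that order, JSH-23 changed Ass1 by -0.027 and -0.041 in KO tumors, Sat1 by -0.0095 and -0.0096 in WT tumors and Slc3a2 by -0.11 and -0.11 in KO tumors, Sat1 differed between genotypes with JSH-23 by -0.14 and -0.14 (-0.027 without scaling), and the interactions were -0.051 and -0.072 for Ass1 and -0.051 and -0.052 for Asl. Leaving out a sample in turn, the log2 fold change between genotypes with JSH-23 ran from -0.042 to 0.0081 for Asl, from -0.024 to 0.00057 for Slc7a1 and from -5.29 to 2.24 for Slc7a2, the last without WT with JSH-23 sample 1. With JSH-23 it ran from -0.037 to 0.20 for Ass1 in WT tumors and from -3.09 to 2.22 for Slc7a2 in KO tumors. The interaction ran from -0.012 to 0.23 for Ass1 and from -1.31 to 6.23 for Slc7a2.

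Leaving out each sample in turn, members called higher in the interaction numbered 1 to 3 (0 to 1 at 1.5-fold), those lower in it at 1.5-fold 0 to 1, those raised by JSH-23 in WT tumors 1 to 2, and those lower between genotypes 1 to 2 with JSH-23 (0 to 1 at 1.5-fold) and 1 to 2 at 1.5-fold with vehicle, while wider list genes lower with JSH-23 numbered 9 to 14. Few counts limit Arg1 with JSH-23, Ass1, Arg2 and Slc7a2.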
